A study of Mus musculus with 2 samples.

Results

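The SoxB genes are the 5 mouse genes Sox1, Sox2, Sox3, Sox14 and Sox21, taken by symbol from the 43346 gene rows of the deposited tables. Sox1, Sox2 and Sox3 form the SoxB1 subgroup, and Sox14 and Sox21 the SoxB2 subgroup. All 5 had a row in both libraries. The samples were midbrain of B6NCrl mouse embryos at embryonic day 10.5, with no treatment or altered allele named in the labels. They form 1 group of 2 biological replicates. Replicate 1 pooled 69 embryos of both sexes and replicate 2 pooled 51. The labels give both pools the same donor identifier. Whether embryos of the same litters entered both is not stated, so any spread between them may be partly technical. Total RNA-seq started from 10 ng of RNA longer than 200 nt, and the summed expected count of the gene rows was 45531592 for replicate 1 and 50477623 for replicate 2. With 1 group no condition can be compared, so levels are described within each library and between the libraries.

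Sox proteins bind DNA through an HMG box, a domain that bends the double helix at a short motif. SoxB1 proteins act mostly as activators that hold neural progenitors in an undifferentiated, dividing state, and they can stand in for each other in many places. SoxB2 proteins act mostly as repressors: in the chick neural tube Sox21 counteracts SoxB1 proteins and promotes differentiation, while Sox14 is known as a marker of restricted sets of neurons and their precursors. Pools of whole midbrain mix progenitors, newborn neurons and other cells, so fewer cells of a type and less RNA per cell cannot be told apart in these values.

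The coding sequences of the family share a nearly identical stretch inside the box, which bears on whether reads can be assigned to 1 member. A 60-base coding stretch of Sox2 and the stretch most like it in each other member are given here from the GENCODE M21 transcripts, 5′ to 3′, with capitals at each base that differs from Sox2.
Sox2: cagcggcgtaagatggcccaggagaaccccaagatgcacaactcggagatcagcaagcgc
Sox1: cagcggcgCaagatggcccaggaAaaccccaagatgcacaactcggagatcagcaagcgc
Sox3: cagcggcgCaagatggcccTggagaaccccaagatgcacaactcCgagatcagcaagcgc
Sox21: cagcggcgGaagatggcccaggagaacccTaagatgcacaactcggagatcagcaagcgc
Sox14: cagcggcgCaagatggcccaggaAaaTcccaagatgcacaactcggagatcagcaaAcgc
In this window Sox1 and Sox21 each differed from Sox2 at 2 bases, Sox3 at 3 and Sox14 at 4. Between Sox14 and Sox21, the SoxB2 pair, 5 bases differed. Over whole transcripts the longest run without any difference was 45 nt, between Sox1 and Sox3, and for Sox14 against the other members it was 19 to 29 nt. The deposited effective lengths were 99 nt shorter than the transcripts, which corresponds to a set length of 100 nt. Whether that is a read length or a fragment length is not stated. It is longer than each of the 10 pairwise shared runs. The deposited posterior SD of the gene count was 0 reads for Sox1, Sox2, Sox3 and Sox14 in both libraries.

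All 5 genes reached 1 TPM, a length-corrected share of transcripts, in both libraries, where 58.1% of 21474 protein-coding genes did so. Sox2 was the most abundant and Sox21 came second. Sox3 and Sox1 were low, and Sox14 was the member that changed place: it ranked above Sox3 and Sox1 in replicate 1 and below them in replicate 2.

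**Figure D1:**
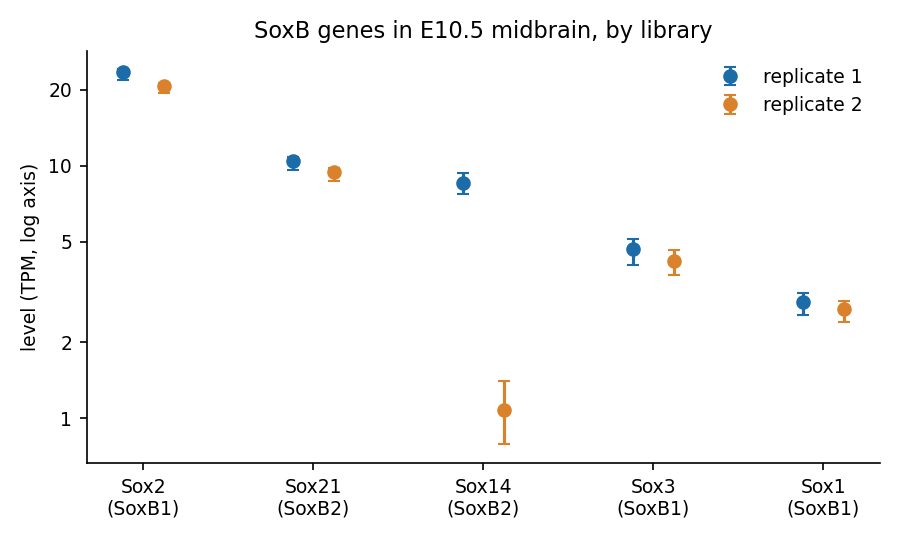
Level of each SoxB gene in TPM (log axis) in replicate 1 (left, blue) and replicate 2 (right, orange); points are the deposited TPM and bars the deposited credible interval. Sox2, Sox21, Sox3 and Sox1 lie at nearly the same height in both libraries, while Sox14 stands at 8.54 TPM in replicate 1 and at 1.08 TPM in replicate 2.

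Sox2, the SoxB1 gene used most widely as a marker of neural stem and progenitor cells, had 23.5 TPM in replicate 1 and 20.7 TPM in replicate 2, a mean of 22.1 TPM ± 2.0 (SD, n = 2). The deposited credible intervals ran from 21.9 to 24.1 TPM in replicate 1 and from 19.4 to 21.3 TPM in replicate 2. These values rested on 1624 and 1640 expected counts. Sox2 ranked 5929th and 6084th of 21474 protein-coding genes by TPM.

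Sox3, an X-linked SoxB1 gene expressed through the early neural plate and tube, had 4.68 TPM in replicate 1 and 4.22 TPM in replicate 2 (mean 4.45 TPM ± 0.33, SD, n = 2), from 270 and 279 counts. Sox1, the SoxB1 gene whose onset marks commitment to the neural lineage, had 2.89 TPM in replicate 1 and 2.71 TPM in replicate 2 (mean 2.80 TPM ± 0.13, SD, n = 2), from 402 and 431 counts. Sox1 thus had more reads than Sox3 and a lower level per length, since its transcript of 4832 nt is longer than that of Sox3 at 2065 nt. Within a library, the TPM of Sox2 was 4.96 ± 0.076 times that of Sox3 and 7.88 ± 0.34 times that of Sox1, and the TPM of Sox3 was 1.59 ± 0.044 times that of Sox1 (SD, n = 2).

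Sox21, the SoxB2 gene that is widespread in the neural tube, had 10.45 TPM in replicate 1 and 9.45 TPM in replicate 2 (mean 9.95 TPM ± 0.71, SD, n = 2), from 1135 and 1174 counts. Its level was above those of Sox3 and Sox1, and the TPM of Sox2 was 2.22 ± 0.039 times its own. Its credible intervals, 9.63 to 10.9 TPM in replicate 1 and 8.74 to 9.83 TPM in replicate 2, reached those of no other member in the same library.

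Sox14, the other SoxB2 gene, had 8.54 TPM in replicate 1 and 1.08 TPM in replicate 2, from 489 and 62 counts. Its mean of 4.81 TPM ± 5.3 (SD, n = 2) describes neither library. The credible interval ran from 7.74 to 9.41 TPM in replicate 1 and from 0.789 to 1.41 TPM in replicate 2, where the exact Poisson 95% interval of the 62 counts is 47.5 to 79.5 counts. Its lower bound in replicate 2 lay under 1 TPM, the threshold for detection.

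Along the order Sox2, Sox21, Sox14, Sox3, Sox1, no neighbouring pair had overlapping credible intervals within a library. Sox2 exceeded Sox21 and Sox3 exceeded Sox1 in both libraries by more than their spread. Sox21 also exceeded Sox14 in both, by 1.22 times in replicate 1 and 8.75 times in replicate 2. Sox14 and Sox3 cannot be ordered, since Sox14 was 1.82 times Sox3 in replicate 1 and 0.256 times Sox3 in replicate 2. Sox14 was likewise 2.96 times Sox1 in replicate 1 and 0.399 times Sox1 in replicate 2.

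Summed over the 5 genes, the SoxB level reached 50.02 TPM in replicate 1, against 38.16 TPM in replicate 2. The SoxB1 sum was 31.0 and 27.6 TPM and the SoxB2 sum 19.0 and 10.5 TPM. Sox2 held 46.9% and 54.2% of the SoxB sum, Sox21 20.9% and 24.8%, Sox3 9.36% and 11.1%, and Sox1 5.78% and 7.10%, in replicate 1 and replicate 2. Sox14 held 17.1% in replicate 1 and 2.83% in replicate 2. The SoxB1 genes therefore made up 62.0% of the sum in replicate 1 and 72.4% in replicate 2, while within SoxB1 the share of Sox2 was 75.6% and 74.9%.

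**Figure D2:**
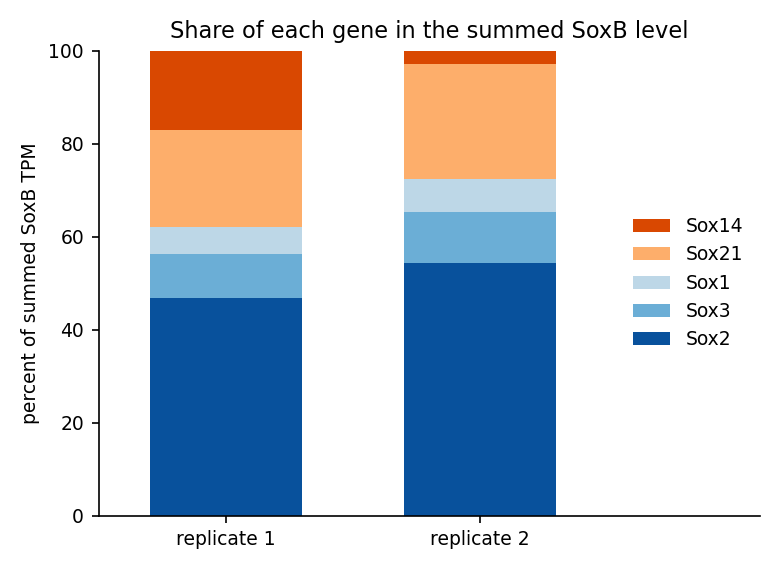
Percent of the summed SoxB TPM held by each gene in each library; blue segments are SoxB1 genes, orange ones SoxB2 genes. Sox14 takes 17.1% of the sum in replicate 1 and 2.83% in replicate 2, and the segments of the other 4 genes are each wider in replicate 2.

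Between the libraries, counts were scaled by TMM factors, and a gene was called where the scaled counts differed at least 2-fold. Of the 14768 genes whose mean level reached 1 TPM, 3.22% passed this fold in either direction and 2.04% were at least 2-fold higher in replicate 1. Among the SoxB genes 1 of 5 passed, Sox14. Each side is 1 library, so no test of biological spread can be made, and the intervals below are exact binomial 95% intervals that cover counting error only. The ratio compares these 2 libraries, not conditions.

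The ratio of Sox14, replicate 1 over replicate 2, was 8.47-fold, with an interval of 6.54 to 11.3 (log2 ratio 3.08). The other 4 members lay close to equality. The log2 ratio was 0.10 for Sox2 (interval -0.00 to 0.20), 0.07 for Sox3 (-0.18 to 0.31), 0.06 for Sox21 (-0.05 to 0.18) and 0.01 for Sox1 (-0.19 to 0.21). Each of these 4 intervals includes 0, and each ratio was smaller than the median absolute log2 ratio of 0.16 over the 14768 genes. The intervals exclude a 1.5-fold difference between the libraries for these 4 genes.

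Only 13 of the 14768 genes had a ratio further toward replicate 1 than Sox14, and 11 of them had a rounded count of 0 in replicate 2. Sox14 and 6 further genes make up the 7 of 12756 protein-coding genes at or beyond its ratio, where 1.58% of those 12756 were at least 2-fold higher in replicate 1. Of the other 6, S100a8, a calcium-binding protein gene of myeloid cells, had 22 counts in replicate 1 and 0 in replicate 2. C1ql4, a gene of the C1q-like secreted proteins, had 47 counts in replicate 1 and 5 in replicate 2. The choice of these examples was made with their values in view. Sox14 had 489 counts in replicate 1, more than any of the 13 genes beyond it.

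**Figure D3:**
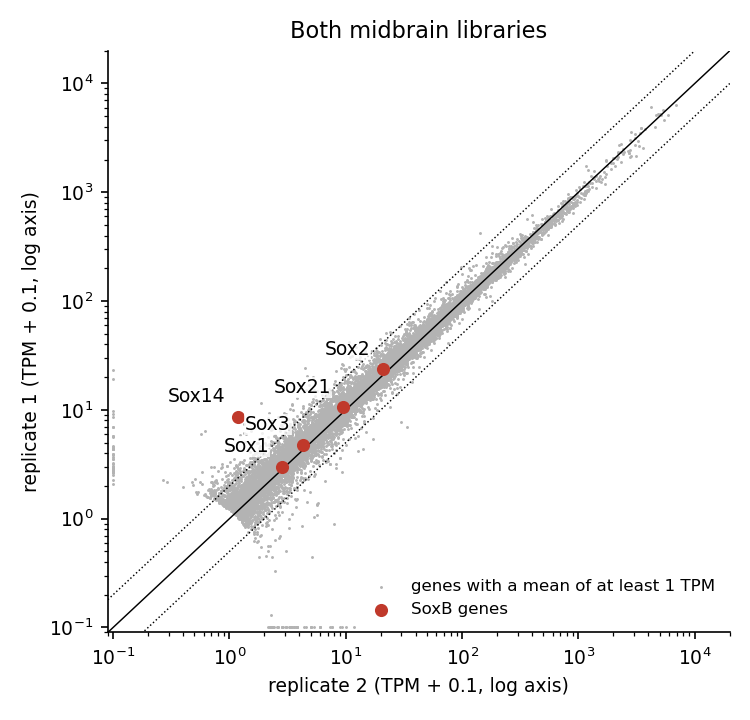
TPM of each gene whose mean level reached 1 TPM, in replicate 1 (vertical) against replicate 2 (horizontal), both with 0.1 added and on log axes; the solid line marks equality, the dotted lines a 2-fold difference, and red points the SoxB genes. Sox2, Sox21, Sox3 and Sox1 lie along the line of equality, and Sox14 lies above the 2-fold line at 8.54 and 1.08 TPM.

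Sox14 has a pair of annotated transcripts in the deposited tables, and the difference was carried by the longer one. The transcript of 2065 nt had 8.38 TPM in replicate 1 and 0.73 TPM in replicate 2 (483.66 and 48.27 counts). The transcript of 1274 nt had 0.15 TPM in replicate 1, with a credible interval of 2.72e-05 to 1.47 TPM, and 0.35 TPM in replicate 2, with one of 0.000105 to 0.713 TPM. The longer transcript held 98.2% of the gene in replicate 1 and 67.8% in replicate 2. The intervals of the shorter transcript overlap and start near 0, so a change in the isoform share was not detectable at this depth.

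Promoter sequences of the members are described here, and those of the SoxB2 pair, Sox14 and Sox21, are printed. Any part of the promoter sequence in the ratios between the libraries was not tested. RefSeq (GRCm38.p6) gave windows from 250 bases before to 50 after the start for 4 of the 5 genes: Sox1, Sox2, Sox14 and Sox21. The windows were searched on both strands for 4 motifs: the E-box CANNTG of proneural proteins, the GATA motif AGATAA, the POU octamer ATGCAAAT and the Sox core ACAAT. No matches overlap one another in the windows shown. The windows of Sox14 (chr9:99876121-99876420, minus strand) and Sox21 (chr14:118236981-118237280, minus strand) are printed 5′ to 3′ with motif matches in capitals.
Sox14: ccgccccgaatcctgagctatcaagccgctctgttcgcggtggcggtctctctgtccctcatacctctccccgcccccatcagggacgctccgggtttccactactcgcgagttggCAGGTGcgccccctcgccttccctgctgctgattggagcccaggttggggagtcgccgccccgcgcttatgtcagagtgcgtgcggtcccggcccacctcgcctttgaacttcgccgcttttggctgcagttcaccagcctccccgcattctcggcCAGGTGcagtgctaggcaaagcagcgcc
Sox21: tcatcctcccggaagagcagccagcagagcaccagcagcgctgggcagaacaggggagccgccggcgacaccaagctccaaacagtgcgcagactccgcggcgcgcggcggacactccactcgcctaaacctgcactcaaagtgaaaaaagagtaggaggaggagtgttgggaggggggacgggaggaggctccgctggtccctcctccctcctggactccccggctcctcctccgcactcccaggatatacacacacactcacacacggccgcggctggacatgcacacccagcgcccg
The Sox14 window holds 2 E-boxes and no match to the other 3 motifs, and the Sox21 window holds no match to any of the 4. An E-box is present in 72.3% of 32851 promoter windows of the same length, AGATAA in 11.2%, ACAAT in 31.0% and the octamer in 1.74%. The Sox1 window holds 1 octamer and the Sox2 window 1 E-box. The 4 windows had 65.7% to 70.7% G and C and 22 to 37 CpG dinucleotides, against medians of 52.7% and 7 over all windows. A match is a description of letters and not evidence that a factor binds.

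The members share a compact gene structure. The longest M21 transcript of each has 1 exon, as has that of 6.82% of 21877 protein-coding genes. Their transcripts hold 50.5% (Sox2) to 66.4% (Sox3) G and C, against a median of 49.1%, and their coding sequences 63.3% (Sox14) to 73.7% (Sox1). Whether base composition affects the levels was not tested. The Sox2 transcript was 2457 nt long in the deposited tables and 2057 nt in M21, and a shorter length gives a higher TPM for the same count.

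Sox1 lies on chromosome 8 from 12395295 to 12400126, Sox2 on chromosome 3 from 34650405 to 34652461, Sox3 on chromosome X from 60891366 to 60893430, Sox14 on chromosome 9 from 99874106 to 99876170 and Sox21 on chromosome 14 from 118233232 to 118237030 (GRCm38, M21). Sox1 and Sox2 lie inside the spans of long noncoding RNA genes on the same strand, and Sox21 overlaps one on the other strand. No annotated gene overlaps Sox3 or Sox14. Sox1ot, the RNA around Sox1, had 1.59 TPM in replicate 1 and 1.35 TPM in replicate 2 (233 and 226 counts). The row Gm25239, a small RNA within Sox1, was listed at 0 in both. Sox2ot, the RNA around Sox2, had no row under its identifier and was not analysed here. Gm4675, which overlaps 799 nt of Sox21, had 7.20 TPM in replicate 1 and 5.73 TPM in replicate 2. The posterior SD of its count was 8.91 reads in replicate 1 and 7.87 reads in replicate 2, the same figures as for Sox21. Strand use is not given in the sources used here, so reads in the overlap cannot be assigned to either gene with certainty.

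Among the 15 other Sox genes, 12 reached a mean of 1 TPM, as did 12756 of 21474 protein-coding genes. The SoxB sum was small beside the SoxC sum of 397 TPM in replicate 1 and 283 TPM in replicate 2. The SoxC genes are known from newborn neurons. Sox11 had 310 and 221 TPM, Sox4 79.3 and 54.8 TPM and Sox12 7.76 and 7.32 TPM. Of the SoxE genes, Sox9, a gene of progenitors that become gliogenic, had 91.2 and 52.5 TPM, Sox8 2.17 and 2.85 TPM, and Sox10, a neural crest and oligodendrocyte gene, 0.46 and 2.15 TPM. Sox10 was the only one of the 12 past 2-fold, where 3.22% of 14768 genes passed, and it was higher in replicate 2 (log2 ratio -2.30). Of the SoxD genes, Sox5 had 29.3 and 22.1 TPM, Sox13 27.1 and 24.2 TPM and Sox6 5.94 and 4.47 TPM. The SoxF genes of the endothelium were even between the libraries: Sox18 had 14.89 and 15.95 TPM, Sox7 7.57 and 6.72 TPM and Sox17 7.03 and 7.58 TPM. Sry, Sox15 and Sox30 were each at or under 0.13 TPM.

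Genes that act with SoxB1 proteins were present in both libraries. All 8 listed partner factors reached 1 TPM in both, where 58.1% of 21474 protein-coding genes did so. None passed 2-fold, where 3.22% of the 14768 genes did. Their median log2 ratio was 0.14, with a range of -0.11 to 0.32, beside a median of -0.01 over all 14768 genes. Otx2, a homeobox gene that acts with Sox2 in the anterior neural tube, had 138 and 123 TPM. Chd7, a chromatin remodeller that binds Sox2, had 111.78 and 99.98 TPM. The lowest was Pou3f1, a POU factor gene, at 15.4 and 11.7 TPM. Of 11 genes reported as targets of SoxB proteins, all reached 1 TPM in both libraries, none passed 2-fold and the median log2 ratio was 0.06. Their log2 ratios ran from -0.88 (Lin28a, 14.2 and 24.8 TPM) to 0.57 (Fabp7), both named as the extremes. Hes5, a Notch effector, had 698 and 585 TPM, Fabp7, a radial glial lipid carrier, 622 and 397 TPM, and Egfr, a growth factor receptor gene, 2.92 and 3.0 TPM.

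Markers of neuroepithelial progenitors, the cells in which SoxB1 genes are known to act, were all present. Of these, 10 of 10 reached 1 TPM in both libraries, where 58.1% of 21474 protein-coding genes did so. None passed 2-fold, where 3.22% of 14768 genes did. Their median log2 ratio was 0.11, with a range from -0.55 (Hes1, 27.1 and 36.2 TPM) to 0.57 (Fabp7). Vim, an intermediate filament gene, had 1047 and 958 TPM and Hes5 was second. The lowest by mean was Notch1, the receptor gene, at 32.4 and 25.6 TPM. The progenitor genes summed to 3067 TPM in replicate 1, against 2566 TPM in replicate 2. By mean TPM, Sox2, Sox3 and Sox1 each stood below all 10, with Sox2 closest to them.

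Of the 10 newborn neuron markers, 1 passed 2-fold, the microtubule gene Dcx, at 44.5 TPM in replicate 1 and 19.6 TPM in replicate 2, where 2.04% of all 14768 genes were at least 2-fold higher in replicate 1. All 10 had a log2 ratio above 0, as had 49% of the 14768 genes. Their median log2 ratio was 0.56, beside -0.01 over all those genes. The ratio of Rbfox3 was 0.15, with an interval that includes 0. They summed to 1474 TPM in replicate 1, against 935 TPM in replicate 2. Tubb3, the neuronal tubulin gene, had 562 and 364 TPM, Gap43, a growth cone gene, 171 and 111 TPM, and Rbfox3, a splicing factor gene of maturing neurons, 7.0 and 6.46 TPM. Proneural genes had a median log2 ratio of 0.23, with none at least 2-fold higher in replicate 1 and 1, Atoh1, at least 2-fold higher in replicate 2. Neurog2 had 40.1 and 22.6 TPM, while Atoh1, a proneural gene known from the rhombic lip, had 0.75 and 4.07 TPM.

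Of the 10 genes of the midbrain GABAergic lineage, 9 reached a mean of 1 TPM, as did 12756 of 21474 protein-coding genes. Of these 9, 4 were at least 2-fold higher in replicate 1, against 2.04% of all 14768 genes, and all 9 had a log2 ratio above 0, against 49%. Their median log2 ratio was 0.99, beside -0.01 over all genes. The list summed to 174 TPM in replicate 1, against 87.4 TPM in replicate 2. Helt, a selector of this lineage, had 34.8 TPM in replicate 1 and 16.5 TPM in replicate 2. Tal2, which acts in the first GABAergic precursors, had 28.3 and 18.8 TPM. Slc32a1, the vesicular GABA transporter gene, was lowest at 0.58 and 0.21 TPM. The largest ratios among the 9 were those of Gad1 (6.64 and 2.20 TPM, log2 ratio 1.85, interval 1.58 to 2.14), Lhx1 (16.7 and 4.72 TPM, 1.75) Gad2 (11.1 and 3.34 TPM, 1.67) and Gata3 (23.95 and 8.92 TPM, 1.30), named after their values were seen. The Sox14 interval, 2.71 to 3.50 on the same scale, lay above the intervals of all 9. The TPM of Sox14 relative to each of the 9 genes was 0.245 (Helt) to 1.96 (Tal1) in replicate 1 and 0.0526 (Lhx5) to 0.491 (Gad1) in replicate 2, and it was higher in replicate 1 for all 9. The part of these genes and of the neuronal markers in the Sox14 ratio was not tested.

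**Figure D4:**
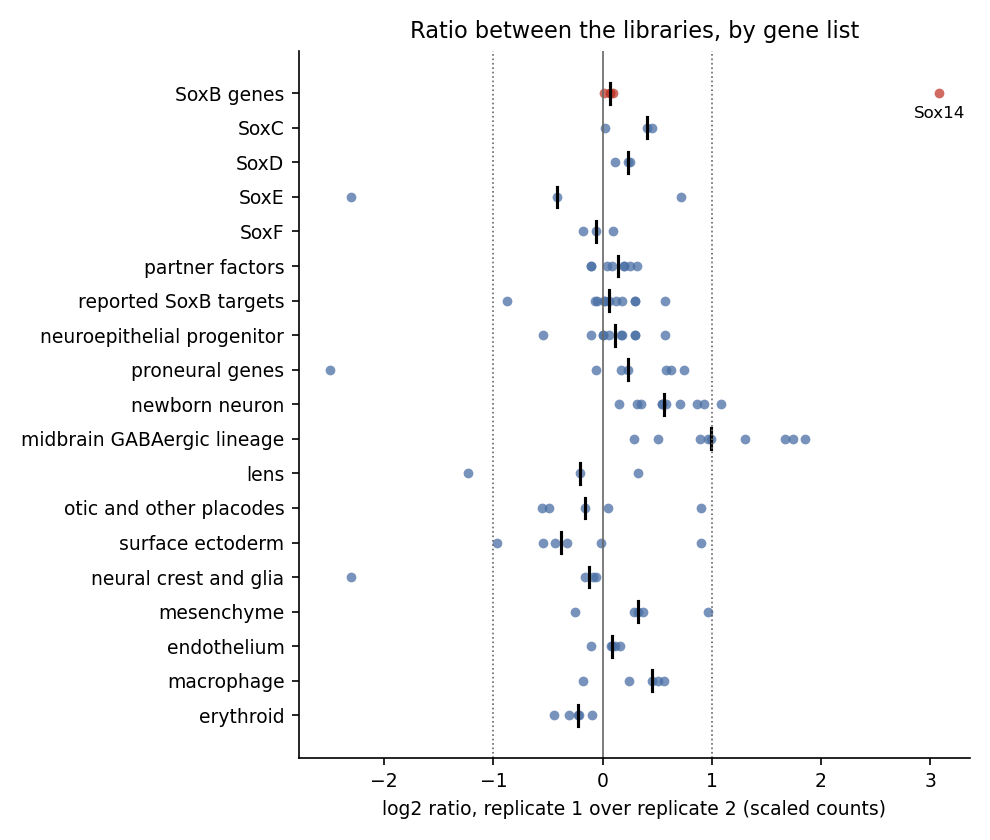
Log2 ratio of scaled counts, replicate 1 over replicate 2, for each gene of the lists shown whose mean level reached 1 TPM. The pituitary list is not shown. SoxB genes are red, black ticks are list medians, and dotted lines mark a 2-fold difference. Sox14 lies at 3.08, above every other gene plotted, and the GABAergic lineage list has a median of 0.99.

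Other cells that use SoxB genes were looked for through their markers, since Sox2 and Sox3 are also active in placodes, lens and pituitary primordium and Sox2 in pluripotent cells. Of 8 lens genes, 3 reached 1 TPM in both libraries, where 58.1% of 21474 protein-coding genes did so. Foxe3 had 5.63 and 12.5 TPM, Bfsp1 1.87 and 1.43 TPM, and the lens genes Crybb2 and Lim2 were listed at 0 in both, with a summed list level of 9.12 and 15.9 TPM. Of 6 placode genes, 5 reached 1 TPM in both: Eya1 had 9.04 and 12.0 TPM, Eya2 8.12 and 12.2 TPM and the otic gene Oc90 0.06 and 0 TPM (sum 37.9 and 40.8 TPM). The placode genes did not all lean the same way, since 2 of 5 had a log2 ratio above 0. These were Dlx5 (7.46 and 3.78 TPM, log2 ratio 0.90) and Pax8 (0.05), named after their values were seen. Of 5 pituitary genes, 1 reached 1 TPM in both: Lhx4 had 3.84 and 1.87 TPM and Hesx1 0.33 and 0.86 TPM (sum 4.47 and 3.52 TPM). None of 7 pluripotency genes reached 1 TPM in both (sum 0.67 and 0.75 TPM): Esrrb had 0.40 and 0.24 TPM, Nanog 0.07 and 0.28 TPM, and Dppa4 was listed at 0. Foxe3 was the only listed lens gene past 2-fold (log2 ratio -1.23), and it made up most of the lens sum in both libraries. The ratios of Cryba1 (-0.20) and Bfsp1 (0.32) had intervals that include 0, and Cryaa, Cryga and Mip were at or under 0.18 TPM. The higher lens sum in replicate 2 thus rests on Foxe3 and not on the list as a whole. The part of these genes' cells in the Sox2 and Sox3 levels was not tested.

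Markers of other tissues set the composition beside these levels. Surface ectoderm genes summed to 46.5 TPM in replicate 1 and 58.9 TPM in replicate 2, with 6 of 9 at 1 TPM in both: Krt8 had 17.0 and 20.2 TPM, Krt18 9.92 and 18.4 TPM, and Krt5 0.10 and 0.19 TPM. Of the 6 whose mean reached 1 TPM, 1 had a log2 ratio above 0, Grhl3 (2.14 and 1.08 TPM, log2 ratio 0.90). Cdh1 had 7.36 and 6.94 TPM and a ratio whose interval includes 0. Both were named after their values were seen. Neural crest and glial genes summed to 41.3 and 43.4 TPM, with 3 of 6 at 1 TPM in both. Ets1 had 22.15 and 21.86 TPM and Foxd3, an early crest gene, 0.05 and 0.20 TPM. Mesenchyme genes summed to 679 and 478 TPM, from Col3a1 at 416 and 317 TPM and Col1a1 at 149 and 72.6 TPM to Twist1 at 6.45 and 7.24 TPM. Endothelial genes summed to 89.05 and 82.11 TPM, with Cldn5 at 25.0 and 25.4 TPM, Kdr at 24.6 and 22.1 TPM and Cdh5 at 11.6 and 10.4 TPM. Macrophage genes summed to 56.99 and 40.05 TPM, with C1qb at 27.4 and 17.5 TPM, Tyrobp at 16.63 and 13.25 TPM and Ptprc at 1.12 and 1.29 TPM. Erythroid genes summed to 8797 and 9657 TPM, with Hbb-y at 6297 and 6913 TPM and Hba-x at 2418 and 2649 TPM. In the last 3 of these lists and in the mesenchyme list, all 5 genes reached 1 TPM in both libraries, where 58.1% of 21474 protein-coding genes did so. None of them passed 2-fold in scaled counts, where 3.22% of 14768 genes did. Col1a1 came nearest, at a log2 ratio of 0.96, and the mesenchyme median was 0.32.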

How the data were processed

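RNA-seq tables of 2 midbrain libraries were used. Per the file headers they were made on mm10 with GENCODE M4 from transcriptome alignments, while aligner and quantifier names are not given in the sources used. The deposited expected counts are estimates per gene, rounded here to whole numbers for ratios. The deposited TPM values are scaled to a fixed total per library, which includes 97 spike-in and 26248 tRNA rows with 7.89% and 7.40% of it. The deposited FPKM values served as an alternative. The deposited credible bounds are a signal in TPM units of a level that is not stated. The deposited isoform percent is a transcript's share of its gene.

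Names and positions came from GENCODE M21 (GRCm38, the assembly of mm10) by identifier without version: 42462 of 43346 matched. TMM factors over all gene rows (edgeR 4.0.16) were 1.01 in replicate 1 and 0.988 in replicate 2. Ratios had 0.5 added to each count, and only genes whose mean reached 1 TPM were used. Intervals are exact binomial (Clopper-Pearson) or exact Poisson at 95% and cover counting error only, since PCR copies are not independent molecules. The calling of ratios was checked on simulated counts. Alternatives were DESeq2 1.42.0 size factors, library totals, posterior means, FPKM, other minimums, added counts and folds, and each replicate alone.

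The members and the 21 gene lists (126 genes) were chosen with earlier results of these data known. The naming rule took all members, their transcripts, overlapping genes and the other Sox genes, and from each further list the 2 highest genes and the lowest. A few genes that this rule takes are not reported here. Where a low list holds several genes at 0, those named are a choice among them. Genes of like pattern were not sought, since any correlation over 2 libraries is complete. Motifs were chosen with the promoter sequences known. Scripts ran under R 4.3.3 and Python 3.11.15 with scipy 1.17.1, numpy 2.4.6, pandas 2.3.3 and matplotlib 3.10.9.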

Additional observations from a re-analysis of the deposited data

How the results depend on the processing

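Of 65 recomputed values, 56 moved by less than the spread between the replicates or, for counts, by less than 1.5 times, or, for ratios, stayed on the same side of 2-fold. That spread is wide for Sox14, whose level was 1.08 TPM without replicate 1 and 8.54 TPM without replicate 2. With 2 libraries, leaving out 1 always moves a mean by less than their SD. For mean levels and the SoxB1 share, the values without a replicate therefore had to fall among the 56 and say nothing about stability. Sox14 stayed past 2-fold and the other 4 members short of it under each alternative for the ratios. The log2 ratio of Sox14 ranged from 2.98 to 3.12 over scalings, added counts and estimators. With DESeq2 size factors the log2 ratio of Sox1 was -0.000343. With TPM rescaled over gene rows only, the mean was 3.03 TPM for Sox1, 4.82 TPM for Sox3 and 10.8 TPM for Sox21, a shift larger than 1 SD that follows from the smaller total. With a minimum of 2 TPM, or of 1 TPM for the lower credible bound, 4 of 5 members passed in both libraries. With a minimum of 5 TPM, 2 of 5 members passed in both libraries. The share of all protein-coding genes past these other minimums is not given here, so these counts stand without a background. Without length correction of the counts, 2 of 5 members kept their place in the order, and longer transcripts then rank higher. Leaving out a replicate kept 2 to 5 members in place: without replicate 1, Sox14 was last. The number of genes past 2-fold was 113 of 10816 at a mean of at least 5 TPM, 5182 of 24638 with no filter on level, and 1423 at 1.5-fold. No paired analysis was possible because there is only 1 group. The 62 counts of Sox14 in replicate 2 limit the precision of its ratio, and 2 libraries limit every SD.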
